A study of Mus musculus with 2 samples.

Results

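The embryonic mouse stomach carried abundant haemoglobin RNA, and the 9 genes described here encode its protein chains. They are the alpha-type genes Hba-x (embryonic zeta), Hba-a1 and Hba-a2 (adult), the theta genes Hbq1a and Hbq1b, the embryonic beta-type genes Hbb-y (epsilon) and Hbb-bh1 (beta-h1), and the adult beta genes Hbb-bs and Hbb-bt. They were taken by symbol, and all 9 of 9 were found among 43346 genes. Total RNA of whole stomachs from mouse embryos of strain B6NCrl at 14.5 days of gestation was sequenced with added spike-in RNAs. The single group held 2 libraries, each from 1 stomach of 1 pup and collected on different days. The labels name no genetic change and no treatment, and they give the sex as pooled male and female, which sits oddly with 1 pup per library. With 1 group there was no comparison between conditions. The question was how much of each globin the organ's RNA held, how far embryonic genes still contributed, and how far the 2 embryos differed.

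Haemoglobin is a tetramer of paired alpha-type and beta-type chains, each holding a haem group, and is made in red cell precursors. In the mouse the alpha-type genes lie in a cluster on chromosome 11 and the beta-type genes in a cluster on chromosome 7. The embryonic genes are used by the primitive red cells that arise in the yolk sac. The definitive red cells that the fetal liver then releases use the adult ones, a change known as haemoglobin switching. An embryonic share of globin RNA is not a share of primitive cells, which were not counted here. The stomach is not a known site of blood formation, and red cells reach it through its vessels. In bulk RNA, fewer red cells and less globin RNA per red cell cannot be told apart.

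The sequences decide which of these genes can be measured singly. A stretch of 60 coding bases of the beta-type genes (coding positions 358 to 417, GENCODE M21) is shown because it holds the only coding base at which Hbb-bs and Hbb-bt differ. Capitals mark bases that differ from Hbb-bs.

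Hbb-bs: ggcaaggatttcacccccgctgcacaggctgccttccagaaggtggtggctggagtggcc

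Hbb-bt: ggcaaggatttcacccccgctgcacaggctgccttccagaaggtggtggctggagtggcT

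Hbb-y: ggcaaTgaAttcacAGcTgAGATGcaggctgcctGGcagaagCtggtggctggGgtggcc

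Hbb-bh1: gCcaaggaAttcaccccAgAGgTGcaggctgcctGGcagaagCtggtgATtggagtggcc

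The stretch of the alpha-type genes (coding positions 322 to 381) holds the only coding base at which Hba-a1 and Hba-a2 differ, and here capitals mark bases that differ from Hba-a2.

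Hba-a2: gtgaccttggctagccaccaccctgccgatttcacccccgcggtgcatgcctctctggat

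Hba-a1: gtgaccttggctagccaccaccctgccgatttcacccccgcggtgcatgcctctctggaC

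Hba-x: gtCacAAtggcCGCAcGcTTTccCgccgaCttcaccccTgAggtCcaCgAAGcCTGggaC

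Within these stretches Hbb-bt had 1 capital, Hbb-bh1 12 and Hbb-y 14 against Hbb-bs, and Hba-a1 had 1 and Hba-x 24 against Hba-a2. Over the whole coding sequence Hba-a1 and Hba-a2 were 99.8% identical (1 difference in 426 bases), as were Hbb-bs and Hbb-bt (1 in 441). The embryonic genes stood well apart from the adult ones, with 74.4% identity between Hbb-y and Hbb-bs, 73.9% between Hbb-bh1 and Hbb-bs, and 61.5% between Hba-x and Hba-a2. Hbb-y and Hbb-bh1 shared 76.4% with each other. Every window of 100 transcript bases of Hba-x, Hbb-y and Hbb-bh1 was absent from the transcripts of all other members, so their reads were not shared with another globin. For the adult genes the share of such windows was 25.5% in the 554-base Hba-a2 transcript, 43.5% in the 699-base Hba-a1 transcript, 37.4% in the 628-base Hbb-bs transcript and 45.2% in Hbb-bt. Levels of single adult genes therefore rest partly on how shared reads were divided. Summed counts of a pair do not, while summed TPM still rests on it through the transcript lengths to which the reads were assigned.

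The embryonic alpha gene Hba-x (ENSMUSG00000055609.4, chromosome 11, 32276400 to 32278116, plus strand) encodes zeta globin, an alpha-type chain of primitive red cells. It had 828 expected counts in replicate 1 and 1160 in replicate 2, which gave 71.4 and 100.1 TPM (a transcript level corrected for length and for the library's total). The mean was 85.7 ± 20.3 TPM (SD, n = 2). Replicate 2 was the higher, by 1.38-fold on library sizes from TMM (trimmed mean of M values), with a 95% counting interval of 1.26 to 1.51. Counting intervals cover the error of read sampling only, and reads amplified by PCR are not independent molecules. The deposited split between its 2 coding transcripts also moved, with the shorter, of 579 bases, at 6.15% of the gene in replicate 1 and 24.4% in replicate 2. That split set the effective length behind the TPM, 688 bases in replicate 1 and 648 in replicate 2, and does not enter the ratio of counts.

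The adult alpha genes together made up the largest part of globin RNA, and Hba-a2 was the most abundant single globin gene. Hba-a2 (ENSMUSG00000069917.7, chromosome 11, 32296489 to 32297298, plus strand) had 36433 and 39677 expected counts, or 4750.2 and 4873 TPM, a mean of 4811 ± 86.7 (SD, n = 2). It ranked ninth by TPM among all genes in both libraries. Its near-identical partner Hba-a1 (ENSMUSG00000069919.7, chromosome 11, 32283511 to 32284465, plus strand) had 13089 and 15108 expected counts, or 1697 and 1852 TPM, a mean of 1775 ± 109.7 (SD, n = 2). The summed count of the pair is the firmer value, because reads common to both copies count once in it. The sum had 49522 and 54785 counts and 6447 and 6725 TPM, and was 1.09-fold higher in replicate 2 (95% counting interval 1.08 to 1.10).

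Hba-a1 held 26.3% of the adult alpha TPM in replicate 1 and 27.5% in replicate 2, or 26.9% ± 0.862 (SD, n = 2). By counts the shares were 26.4% (exact interval 26.0 to 26.8) and 27.6% (27.2 to 28.0). Within Hba-a1, a 494-base transcript that the annotation types as retaining an intron took 69.5% and 70.3% of the gene. The matching 494-base transcript of Hba-a2 took 0% in both libraries. Neither 494-base transcript had a single window of 100 bases that was absent from all other member transcripts, so these percentages rest wholly on the division of shared reads. The deposited posterior SD of the Hba-a1 count, an estimate of the uncertainty of that division, was 1.09% and 1.03% of the count. The effect of the choice of transcript models on the share of Hba-a1 was not tested.

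The theta genes lie between and beside the adult alpha genes and are alpha-type genes of no settled function. Hbq1b (ENSMUSG00000073063.3, chromosome 11, 32286965 to 32287784, plus strand) had 2.46 and 5.22 expected counts, and Hbq1a (ENSMUSG00000020295.1, chromosome 11, 32300069 to 32300873, plus strand) had 2.54 and 6.78. Together they had 5 counts in replicate 1 and 12 in replicate 2, at 0.55 and 1.25 TPM. Their ratio of 2.36 had a counting interval of 0.775 to 8.56, which includes no difference. Both theta genes were below 1 TPM in each library, although Hba-a1 and Hba-a2 in the same cluster were at 1697 TPM or more.

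The embryonic beta gene Hbb-y (ENSMUSG00000052187.3, chromosome 7, 103851749 to 103853216, minus strand) encodes epsilon-y globin, a beta-type chain of primitive red cells. It had 4227 expected counts in replicate 1 and 6212 in replicate 2, or 446 and 618 TPM, a mean of 532 ± 121 (SD, n = 2). The value in replicate 2 was the higher, by 1.45-fold (95% counting interval 1.39 to 1.505). Hbb-bh1 (ENSMUSG00000052217.5, chromosome 7, 103841637 to 103843164, minus strand) encodes beta-h1 globin, the other embryonic beta-type chain, whose use is known to fade earlier than that of epsilon-y. It had 19 and 42 expected counts, or 2.19 and 4.56 TPM, a mean of 3.38 ± 1.68 (SD, n = 2). It was 2.18-fold higher in replicate 2, with a wide counting interval of 1.24 to 3.96 at this low count. Hbb-y exceeded Hbb-bh1 in TPM by 204-fold in replicate 1 and by 135-fold in replicate 2, a mean ratio of 170 ± 48.3 (SD, n = 2). The counting intervals of the count ratio were 142 to 370 in replicate 1 and 109 to 205 in replicate 2, and they overlap. The 2 embryonic beta genes were thus far from equal, and beta-h1 made up 0.488% and 0.733% of the embryonic beta TPM.

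The adult beta genes Hbb-bs and Hbb-bt are the pair of near-identical copies that C57BL strains carry. Hbb-bs (ENSMUSG00000052305.5, chromosome 7, 103826534 to 103828096, minus strand) had 19584 and 21065 expected counts, or 2136 and 2174 TPM, a mean of 2155 ± 27.1 (SD, n = 2). Hbb-bt (ENSMUSG00000073940.3, chromosome 7, 103812524 to 103813996, minus strand) had 17183 and 18512 expected counts, or 1688 and 1713 TPM, a mean of 1700.2 ± 17.7 (SD, n = 2). The levels of each gene in the 2 libraries lay close together. Their sum had 36767 and 39577 counts and 3823 and 3887 TPM, a 1.06-fold difference (95% counting interval 1.04 to 1.07). Hbb-bt held 44.1% of the adult beta TPM in both libraries (mean 44.1% ± 0.0531, SD, n = 2). By counts, not corrected for length, its share was 46.7% and 46.8%. In Hbb-bs a transcript typed as retaining an intron, with a deposited length of 549 bases, took 59.0% and 59.3% of the gene. Its model in GENCODE M21 has 344 bases, and 53 of its 245 windows were absent from all other member transcripts. These percentages thus rest partly on the division of shared reads, and they enter the TPM share of Hbb-bt through the length of Hbb-bs. The effect of the choice of transcript models on that share was not tested.

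**Figure D1:**
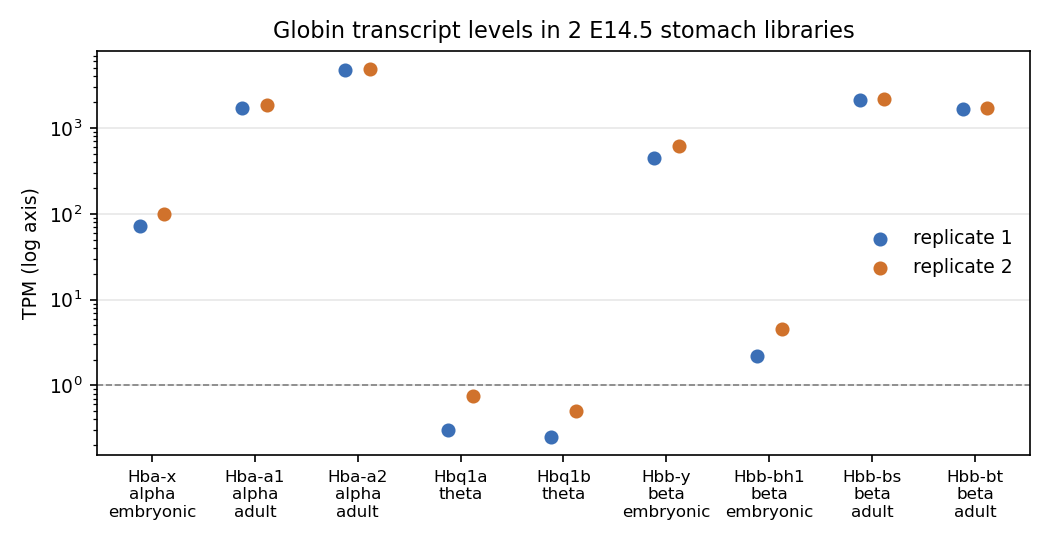
Level of each of the 9 globin genes in TPM (log axis, dashed line at 1 TPM), with 1 point per library. The 4 adult genes lie between 1688 and 4873 TPM in both libraries, Hbb-y and Hba-x lie lower and are higher in replicate 2, and the theta genes lie under 1 TPM.

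Ordered by mean TPM, the genes ran Hba-a2, Hbb-bs, Hba-a1, Hbb-bt, Hbb-y, Hba-x, Hbb-bh1, Hbq1a and Hbq1b, as the plot of levels by gene shows. The libraries' values overlapped between neighbours only for Hba-a1 and Hbb-bt, and for Hbq1a and Hbq1b, whose order is therefore not resolved. Of the 9 genes, 7 reached 1 TPM in both libraries, against 34.9% of all 43346 genes. All 9 together came to 10791 and 11335 TPM. As a share of the TPM of genes, with spike-ins left out, this was 1.23% in replicate 1 and 1.32% in replicate 2, or 1.27% ± 0.0656 (SD, n = 2). The same genes took 0.386% and 0.426% of gene counts, a smaller share because globin transcripts are short.

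Embryonic genes made up a minor part of the RNA of both clusters, and a far smaller part of alpha than of beta. Hba-x was 1.09% of alpha-type TPM (Hba-x, Hba-a1 and Hba-a2) in replicate 1 and 1.47% in replicate 2, a mean of 1.28% ± 0.263 (SD, n = 2). By counts its share was 1.64% (exact interval 1.54 to 1.76) and 2.07% (1.96 to 2.19). Hbb-y and Hbb-bh1 together were 10.5% of beta-type TPM in replicate 1 and 13.8% in replicate 2, a mean of 12.1% ± 2.34 (SD, n = 2). By counts their share was 10.4% (exact interval 10.1 to 10.7) and 13.6% (13.3 to 14.0). In each cluster the counting intervals of the 2 libraries did not overlap, and replicate 2 had the larger embryonic share. In each library the beta share lay above the alpha share by a wide margin, whether taken from TPM or from counts. Hbb-bh1 alone was 0.0513% and 0.101% of beta-type TPM. Over both clusters, embryonic genes were 4.82% and 6.37% of alpha-type and beta-type TPM together, or 5.59% ± 1.10 (SD, n = 2).

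**Figure D2:**
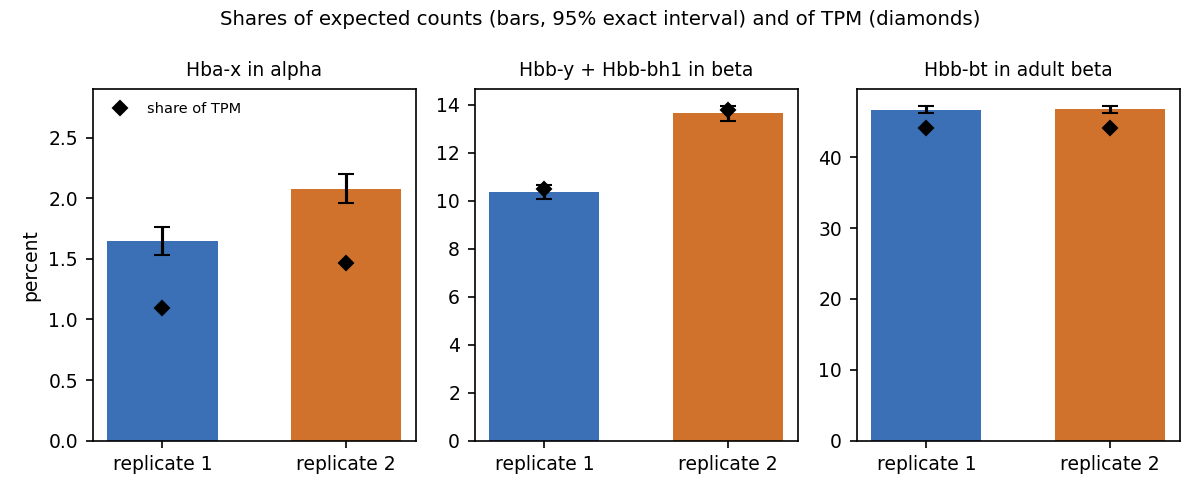
Share of Hba-x among alpha-type genes, of Hbb-y and Hbb-bh1 among beta-type genes, and of Hbb-bt among adult beta genes, in percent, with 1 bar per library for expected counts, error bars for the exact 95% interval, and diamonds for the share of TPM. The first 2 shares are larger in replicate 2 (13.8% against 10.5% of TPM for the beta type), and the share of Hbb-bt is 44.1% of TPM in both.

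The ratio of alpha-type to beta-type RNA was alike in the 2 libraries. It was 1.53 in replicate 1 and 1.51 in replicate 2 in TPM, a mean of 1.52 ± 0.00871 (SD, n = 2). By counts it was 1.23 and 1.22, so the size of the excess of alpha depends on the correction for length. Among adult genes alone the TPM ratio was 1.69 and 1.73. Among embryonic genes alone the order was the opposite, with zeta at 0.159 and 0.161 of the embryonic beta TPM. The alpha-type RNA of these stomachs was thus almost wholly adult, and the embryonic globin RNA was mostly of the beta type.

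The embryonic genes differed more between the 2 embryos than the adult genes did. The log2 ratio of replicate 2 over replicate 1 was 0.46 for Hba-x, 0.53 for Hbb-y and 1.10 for Hbb-bh1. For the adult genes it was 0.19 for Hba-a1, 0.10 for Hba-a2, 0.08 for Hbb-bs and 0.09 for Hbb-bt. All 3 embryonic genes were thus above all 4 adult genes, and summed, embryonic RNA was 1.44-fold higher in replicate 2 (95% counting interval 1.39 to 1.49) and adult RNA 1.08-fold (1.07 to 1.09). Over the 12761 genes whose count averaged at least 100, log2 ratios had a median of -0.01 and a central 95% from -0.39 to 0.36. Hbb-y and Hba-x lay outside that range, and the 4 adult genes inside it. A larger ratio than that of Hbb-y was seen in 89 of the 12761 genes (0.697%), and than that of Hba-x in 148 (1.16%).

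Of the 6 globin genes whose count averaged at least 100, 0 were over 2-fold apart, against 0.298% of all such genes. Hbb-bh1, Hbq1a and Hbq1b did not reach that count. At a lower threshold of 25% higher in replicate 2, chosen after the values were seen, 2 of the 6 passed (Hbb-y and Hba-x), against 3.28% of all such genes. No p-value can be had from 1 library against 1, and embryo, collection day and library preparation cannot be told apart.

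Ratios taken inside a cluster do not depend on how libraries are scaled. The count ratio of Hbb-y to adult beta was 1.37 times as large in replicate 2 (95% counting interval 1.31 to 1.42), and that of Hbb-bh1 to adult beta 2.05 times (1.17 to 3.74). The count ratio of Hba-x to adult alpha was 1.27 times as large (1.16 to 1.39). All 3 embryonic genes thus gained on the adult genes of their own cluster. The ratio of Hba-x to Hbb-y was 0.953 times as large in replicate 2, with an interval of 0.864 to 1.05 that includes no difference. Hbb-bh1 over Hbb-y gave 1.504 (0.854 to 2.74), an interval that likewise includes no difference. Scaling on spike-in counts lowered the median log2 ratio of all genes to -0.27. Under it the 3 embryonic genes stayed above 0 (0.20 to 0.83) while the 4 adult genes fell below 0 (-0.19 to -0.08), so the small excess of adult globin in replicate 2 is relative to the typical gene. A change of library scaling moves all genes alike and cannot alter the gap between embryonic and adult genes, of which the lowest embryonic and highest adult ratio were 0.28 apart. On the ratio of deposited TPM that gap was 0.34.

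**Figure D3:**
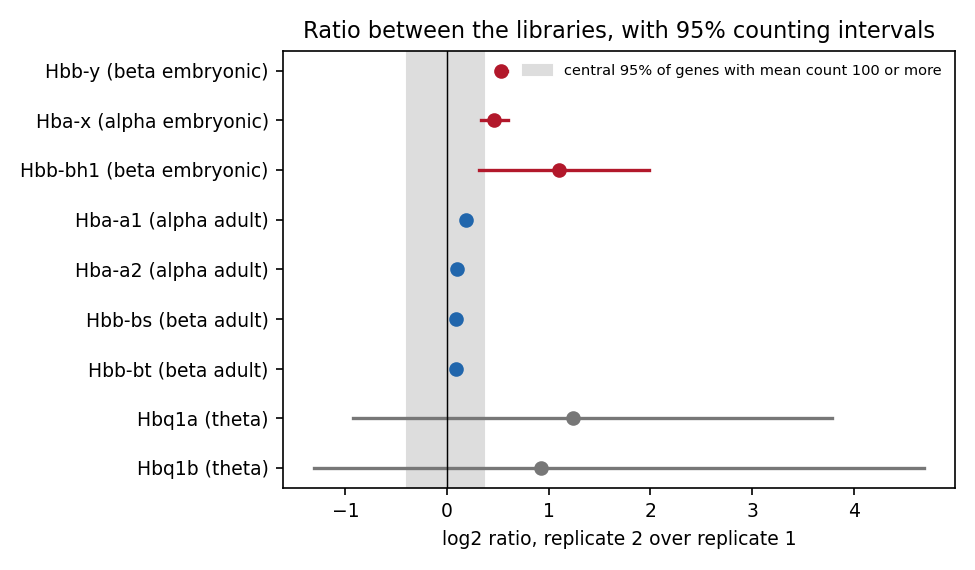
Log2 ratio of replicate 2 over replicate 1 for each globin gene, with exact 95% counting intervals as bars and the central 95% of genes that averaged at least 100 counts as a grey band. The points of the 3 embryonic genes lie above the band (0.46 to 1.10), with the intervals of Hba-x and Hbb-bh1 reaching into it, the 4 adult genes lie inside it, and the theta genes have intervals that span 0.

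The upstream sequences of the most abundant adult gene and of the most abundant embryonic gene are shown as examples. The 2 genes also lie in different clusters. Both sequences are from the reference genome and hold no difference between the embryos, and their part in the ratios was not tested. Each is the 120 bases before the start site of RefSeq (GRCm38.p6), and capitals mark the CACCC box, the CCAAT box, the GATA site, the TATAA box and its ATAAA form on either strand, where the last 2 may overlap.

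Hba-a2, chr11:32296372-32296491, plus strand: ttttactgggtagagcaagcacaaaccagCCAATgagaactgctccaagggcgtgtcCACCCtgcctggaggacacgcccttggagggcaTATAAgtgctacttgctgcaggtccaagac

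Hbb-y, chr7:103853208-103853327, minus strand: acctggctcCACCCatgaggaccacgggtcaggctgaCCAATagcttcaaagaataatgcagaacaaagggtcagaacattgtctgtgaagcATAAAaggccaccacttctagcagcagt

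CACCC, the kind of site that Klf1 binds, stood in this window of all 6 members with a RefSeq promoter entry other than the theta genes. It stood in 31.7% of 32851 promoters. CCAAT stood in Hba-a1, Hba-a2, Hbb-y, Hbb-bs and Hbb-bt and not in Hba-x, against 21.3% of promoters. TATAA (11.8% of promoters) stood in Hba-x, Hba-a1, Hba-a2, Hbb-bs and Hbb-bt, and Hbb-y had ATAAA (20.2%) at 28 to 24 bases before its start. GATA (29.5%) stood in Hba-x and Hbb-bs. None of the 5 motifs was in the window of Hbq1a or Hbq1b. The windows of Hba-a1 and Hba-a2 were identical over the 117 bases they shared, while those of Hbb-bs and Hbb-bt were 73.9% identical over 119. The GENCODE models of Hba-x, Hba-a1, Hbb-bs and Hbb-bt begin inside or before these windows, and those of Hba-a2 and Hbb-y reach 3 and 9 bases into them, so the RefSeq start is not the only annotated one. Hbb-bh1 had no entry.

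Factors that drive the red cell programme were low beside the globins. Of 12 erythroid regulators 9 reached 1 TPM in both libraries, and the most abundant were Nfe2l2 (70.6 and 65.1 TPM), a stress-response factor, Ldb1 (61.0 and 57.2 TPM), a looping cofactor at the globin loci, and Lmo2 (11.5 and 10.9 TPM), its partner. All of these are also expressed outside red cells. The red cell factors Klf1 and Gata1, named after their values were seen, had 44 and 43 counts and 17 and 18 counts. Among the 7 regulators that averaged at least 100 counts, 1 was higher in replicate 2 and 6 in replicate 1. Their median was -0.06 on the log2 scale, beside -0.01 for all such genes. None passed 25% higher in replicate 2.

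Regulators of the switch were present in both libraries. Of 14, 13 reached 1 TPM in both, led by Hbs1l (62.9 and 57.2 TPM), whose locus neighbours Myb, Chd4 (61.2 and 53.5 TPM), a subunit of the NuRD repressor complex, and Igf2bp3 (57.9 and 50.5 TPM), a fetal RNA-binding protein. Bcl11a, the repressor of embryonic and fetal globin in definitive red cells, had 30.3 and 30.0 TPM. Bcl11a, chosen after its values were seen, is also expressed in neurons and lymphocytes, and its level here is that of the whole organ. Of 13 that averaged at least 100 counts, 6 were higher in replicate 2 and 7 in replicate 1, and the median log2 ratio was -0.04. The ratios ran from -0.42, that of Myb, named after its values were seen, to 0.15.

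Genes that supply haem and iron reached 1 TPM in 19 of 19 cases. Among the most abundant were Tmem14c (164.5 and 162 TPM), a mitochondrial porphyrin transporter, and the haem synthesis enzyme Alad (103 and 92.7 TPM). Alas2, the red cell form of the first enzyme of the pathway, named after its values were seen, had 21.4 and 19.0 TPM. The median log2 ratio of the 19 was -0.03, with 7 higher in replicate 2 and 12 in replicate 1, and 1 passed 25% higher in replicate 2. Of the 29 matched genes of the red cell membrane and cytosol, 17 reached 1 TPM in both libraries, led by Prdx2 (595 and 645 TPM) and Gpx1 (525.5 and 506 TPM), antioxidant enzymes made in many cells, and Bnip3l (331 and 346 TPM), which acts in the removal of mitochondria. The anion exchanger Slc4a1, chosen after its values were seen, had 148 and 114 counts. Of the 14 that averaged at least 100 counts, 7 were higher in each library and the median log2 ratio was -0.001. Hbb-y and Hba-x had larger ratios than every gene of these 4 lists that averaged at least 100 counts, the largest being 0.32 in the haem and iron list.

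Other genes around the alpha cluster showed little difference. Snrnp25 had 40.2 and 44.5 TPM and Rhbdf1 36.0 and 34.0 TPM. The log2 ratio of the 5 neighbours on chromosome 11 that averaged at least 100 counts ran from 0.00 to 0.21, with a median of 0.04 that turned to -0.22 on spike-in scaling. Luc7l, also in the list, lies on chromosome 17 beside the pseudogene Hba-ps4 and had 82.1 and 77.5 TPM.

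Markers of other cells were read beside the embryonic globin difference. Of 10 liver genes 8 reached 1 TPM in both libraries and none was at 0, and their summed level was 121.3 TPM in replicate 1 and 120.8 in replicate 2, most of it from Apoa1 (55.5 and 51.7 TPM), Trf (22.2 and 22.3 TPM) and Ttr (18.5 and 15.3 TPM), which other tissues also express. Of these 10, 7 were higher in replicate 2, and 3 of them over 2-fold higher without a filter on low counts. Over all 24846 genes with any count, those with few counts included, 10.4% were over 2-fold higher in replicate 2. At a mean count of 100 or more, which none of those 3 liver genes reached, 0.298% were over 2-fold apart in either direction. Those 3 liver genes, named after their values were seen, were albumin Alb (44 and 122 counts), Ahsg (3 and 22 counts) and Fgb (4 and 14 counts), and alpha-fetoprotein Afp had 161 and 238 counts and Apoa2 19 and 38. These 5 genes of plasma proteins were higher in replicate 2, as the embryonic globins were. Other such genes were lower there, namely Serpina1a (37.5 and 22.9 counts), Ttr (349 and 307 counts) and, slightly, Apoa1 (865 and 862 counts). The summed level of the list was nearly equal. Of 12 genes of granulocytes, mast cells and megakaryocytes 8 reached 1 TPM in both and none was at 0, at a summed 182 and 151 TPM, led by S100a8 (73.5 and 55.3 TPM), Pf4 (48.7 and 44.2 TPM) and S100a9 (40.8 and 30.2 TPM). Of these 12, 4 were higher in replicate 2, and 3 over 2-fold higher without a filter. These were the primary granule genes Mpo (70.7 and 150 counts), Elane (8 and 39 counts) and Prtn3 (28.2 and 61.2 counts). The part of liver tissue or of immature blood cells in the embryonic globin difference was not tested.

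As in the lists of erythroid regulators, endothelium and stomach genes, the macrophage list had a slightly negative median log2 ratio. It was -0.09, beside -0.01 for all genes that averaged at least 100 counts. Of the list's 12 such genes, 8 were higher in replicate 1. Its leading genes were the iron exporter Slc40a1 (63.9 and 54.5 TPM), Lyz2 (61.6 and 50.4 TPM) and C1qb (52.1 and 52.4 TPM). The endothelial list, which stands for the vessels that hold the blood, had a median of -0.06 and was led by Egfl7 (91.8 and 83.5 TPM), Plvap (50.5 and 49.1 TPM) and Esam (44.0 and 42.9 TPM). The tissue was as labelled by its markers, with 10 of 10 stomach genes at 1 TPM or more in both libraries, led by chymosin Cym (2152 and 1927 TPM), Acta2 of smooth muscle (1929 and 1870 TPM) and the epithelial keratin Krt8 (647 and 567 TPM), and a median log2 ratio of -0.06. Adult globin RNA, at 10271 and 10612 TPM summed over its genes, was above each of these tissue genes. Singly, Hba-a2 (4750 and 4873 TPM) was above them all. Hba-a1 (1697 and 1852 TPM) and Hbb-bt (1688 and 1713 TPM) were below Cym and Acta2 in both libraries. Hbb-bs (2136 and 2174 TPM) was below Cym in replicate 1 only.

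**Figure D4:**
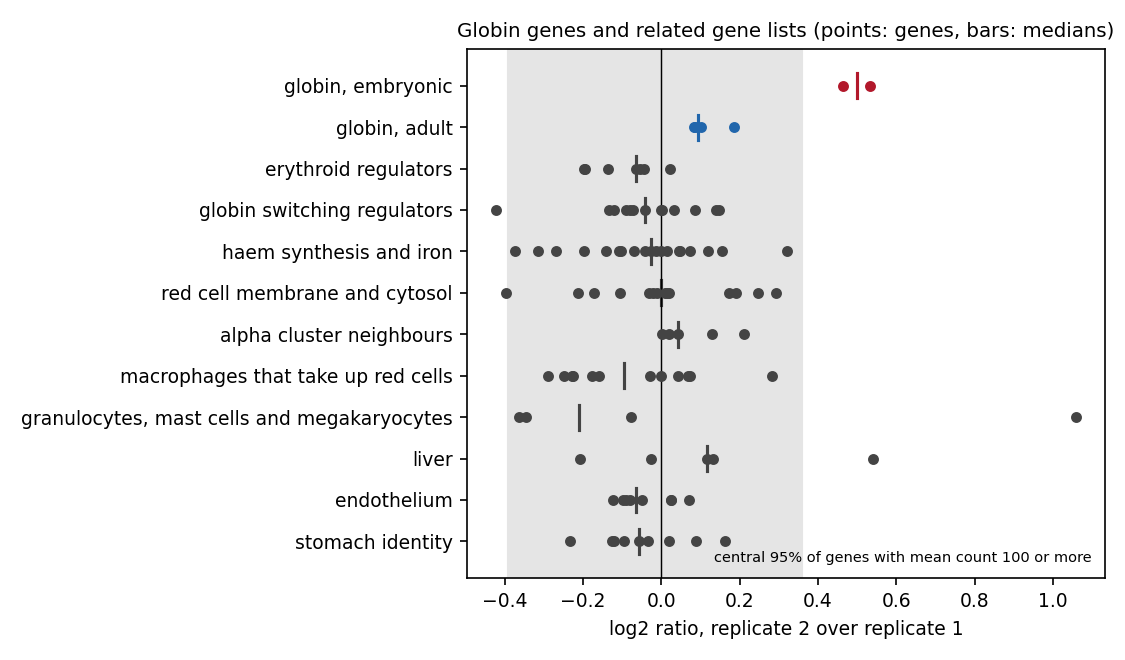
Log2 ratio of replicate 2 over replicate 1 for globin genes and for 10 gene lists, with 1 point per gene that averaged at least 100 counts, a bar at each median (alpha cluster neighbours on chromosome 11 only) and the central 95% of all such genes as a grey band. Hbb-y and Hba-x lie above the band, as do Mpo of the granulocyte list and Afp of the liver list. Myb of the switching regulators and Slc4a1 of the red cell list lie just below the band. The median of each list lies inside it.

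Other globin-fold genes were low. In the beta cluster Hbb-bh0 had 1 and 2 counts, and Hbb-bh2 and Hbb-bh3 had 0 in each library, where a true level of up to 3 counts is possible. The alpha pseudogene Hba-ps4 had 3 and 4 counts. Cytoglobin Cygb, a globin of fibroblast-like cells, had 571 and 612 counts (15.2 and 15.3 TPM), neuroglobin Ngb 60 and 40 counts, myoglobin Mb 16 and 6 and Adgb 10 and 4. The symbols Hba-ps3, Hbb-b1 and Hbb-b2 were not matched and are not analysed here.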

How the data were processed

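Total RNA-seq libraries of 2 single E14.5 stomachs were analysed as 1 group. RNA longer than 200 nt was kept and 10 ng was used as input, per the labels. The authors deposited expected counts (estimated reads, shared reads divided among features) and TPM, scaled with the spike-ins included. They also deposited a posterior mean TPM, a posterior SD of counts, TPM bounds (a signal whose level is not stated and which is not printed), transcript lengths and, for transcripts, a percent of the gene. Build mm10 and annotation GENCODE M4 are per the deposited notes. Aligner, counter and strandedness: not given in the sources used here, so antisense reads cannot be told apart. Total counts were 25072242 and 25599910, of which spike-ins took 5.60% and 6.71%. Spike-ins and numbered entries (15.47 and 25 counts) were left out of library sizes. The precision of low members is limited by these depths, at which 0 counts allows up to 3.

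Identifiers were matched to symbols (42462 of 43346). Positions, transcripts and coding bases come from GENCODE M21 on the same assembly, whose transcripts of Hbb-y, Hbb-bh1 and Hbb-bs differ in length from those deposited. Promoters come from RefSeq GRCm38.p6, with 8 of 9 members matched. Windows of 100 bases stand for a read, since the deposited effective lengths are transcript lengths less about that much.

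Levels are TPM per library with mean ± SD. Ratios are log2 of replicate 2 over replicate 1, from expected counts plus 0.5 on TMM sizes (edgeR 4.0.16, R 4.3.3). Shares carry exact Clopper-Pearson 95% intervals on rounded counts, and ratios exact binomial ones. The n of 2 gives no test. The procedure was tested on simulated data. Alternatives were DESeq2 1.42.0 size factors, spike-in scaling, the TPM ratio, other added counts, filters and folds, posterior mean TPM, other denominators and each library alone. Figures used matplotlib 3.10.9, and intervals scipy 1.17.1, with pandas 2.3.3 and numpy 2.4.6 in Python 3.11.15.

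The members and the 10 lists (135 of 136 genes matched, Ahsp not analysed here) were chosen with earlier results of these data known. Named were all members, other globin-fold genes, and of each list its 3 most abundant genes and any over 2-fold apart at a mean count of 100. Some genes that this rule takes are not reported here by name. Others are said to be named after their values were seen. Nothing states that the 2 libraries were prepared in parallel, so their spread may be partly technical.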

Additional observations from a re-analysis of the deposited data

How the results depend on the processing

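No paired analysis was possible because there is 1 group. On expected counts, which are not corrected for length, the embryonic share of alpha moved to 1.86%, the share of Hbb-bt in adult beta to 46.8%, the alpha to beta ratio to 1.22 and the globin share to 0.406%. The posterior mean TPM gave 44.0% for Hbb-bt, outside its very small spread, and spike-ins in the denominator gave a globin share of 1.11%. The number of members over 2-fold apart, 0, became 1 at a mean count of 10 or more, 2 with no filter and 2 at a difference of 25%, which was chosen after the data were seen. The number of all such genes, 38, became 63 with spike-in scaling, 631 at a mean count of 10 or more, 5064 with no filter, 160 at 1.5-fold and 947 at 25%. With 2 libraries, leaving 1 out always stays within the SD and says nothing about stability. Of 18 other alternative levels of members, 10 moved by less than the SD. Of 60 alternative log2 ratios of members and their sums, 45 stayed within the counting error. Of 71 alternative list medians 63 moved by less than the spread between the list's genes, among them the median of the alpha cluster neighbours on chromosome 11 alone, a choice made after the data were seen. The other 8 medians all came from spike-in scaling. Hbb-bh1 and the theta genes are limited by depth.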
